A study of Ceratopteris richardii with 15 samples.

Results

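The root tip and the shoot tip of the fern Ceratopteris richardii were compared through the 3 root tip and 3 shoot tip libraries of the study, 6 of its 15 libraries. Genes entered the comparison when at least 3 of these 6 libraries held a TPM of 1 or more (TPM is a transcript abundance corrected for gene length and expressed as a share of the library), which left 33538 of the 88641 genes in the deposited table. Both groups were wild type RNWT1 sporophytes at 50 days, grown from spores on MS medium under long days. The other groups of the study, used here as a reference, were leaf tip and the root and the leaf without their tips, called root and leaf below, with 3 libraries each. The labels give neither the length of a tip nor the number of plants behind a library. Nothing says that replicates came from separate plants, so the spread behind every p-value is that of these samples and could be technical.

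Ferns, like other vascular plants, lengthen their roots and shoots from meristems at the tips. In Ceratopteris each of these meristems holds a single large apical cell that divides in an ordered way. The root apical cell also gives off a root cap on its outer side, while the shoot apex produces leaf primordia, from which leaves with their own apical cells develop. A dissected shoot tip can therefore hold young leaf tissue, and a dissected root tip holds cap and young root tissue along with the meristem. In such bulk samples fewer cells of a type and less RNA per cell cannot be told apart.

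The identifiers have the form written by the Trinity assembler, which builds transcripts from reads without a genome, and the table pairs them with no names. None of them matched the 36816 genes of the reference table, a count of 0. Only identifiers can be given for the genes, without position, sequence or function, and the labelled tissues could not be checked against marker genes. Across the genes tested, log2(TPM + 1) correlated with r = 0.993 to 0.994 between root tip libraries, 0.99 to 0.993 between shoot tip libraries and 0.82 to 0.825 between a root tip and a shoot tip library, so each library was nearest to the others of its tissue. Among the root libraries, replicates 1 and 2 correlated at r = 0.994 and replicate 3 with them at r = 0.975 each, and the main counts that use root are given with and without it.

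More genes were detected in shoot tip than in root tip. Genes at 1 TPM or more numbered 30082, 30030 and 30022 in the root tip libraries and 33839, 34009 and 33425 in the shoot tip libraries. The groups did not overlap, and the difference (root tip minus shoot tip) of -3713 genes had p = 0.1 in a two-sided exact permutation test, the smallest value that 3 libraries against 3 can give. Sequencing depth is unknown from TPM, and its part in this difference was not tested. The share of the summed TPM in the 100 most abundant genes averaged 15.8% ± 0.10 for root tip libraries against 16.1% ± 0.29 for those of shoot tip (SD, n = 3), with p = 0.3 in the same exact test. Of the 100 most abundant genes of each tip, 69 were on both lists. Called higher in their own tip were 27 of the root tip list and 21 of the shoot tip list. Over all genes tested 11.2% were called for root tip and 13% for shoot tip, and at 100 TPM or more 12.4% and 8.38%. Each list was ranked by the tip levels that also enter the call, which favours calls for its own tip.

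Of the genes tested, 24.1% were called as different between the tips. A gene was called when its adjusted p in limma was under 0.05 and its fold difference on the (TPM + 1) scale was at least 2, and 8098 of 33538 genes met both criteria. Of these, 3748 (11.2% of those tested) were higher in root tip and 4350 (13%) were higher in shoot tip. The 3 libraries of 1 tip all lay above the 3 libraries of the other in 26479 genes (79% of those tested), 8085 of them among the 8098 called genes, for which the criteria nearly fix it. At any fold, 25980 genes (77.5%) had an adjusted p under 0.05. For 12960 genes (38.6%) the 95% interval of the difference stayed within 1.5-fold in either direction.

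**Figure D1:**
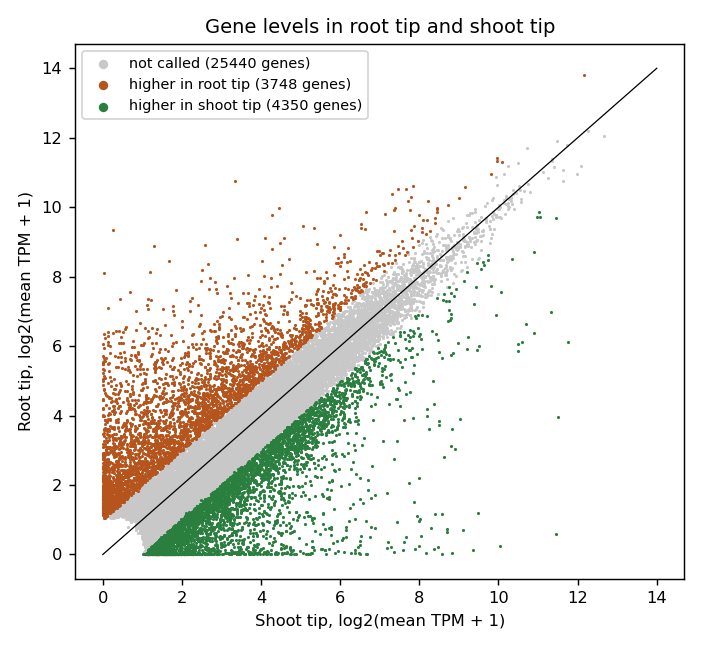
Mean level of each tested gene in shoot tip (horizontal axis) and root tip (vertical axis), both as log2(mean TPM + 1), with the line of equal levels. The 3748 genes called higher in root tip lie above the band of 25440 genes that were not called and the 4350 called higher in shoot tip lie below it, and each list reaches from low to high levels.

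The genes higher in root tip differed by larger folds than those higher in shoot tip. The median log2 fold change was 1.68 in the root tip list and -1.48 in the shoot tip list, against -0.16 over all genes tested. These medians were 1.65 and -1.46 after median-ratio scaling, and 1.68 and -1.51 after quantile normalization. Differences of 2 to 4 fold made up 63% of the root tip list (2362 genes) and 76.6% of the shoot tip list (3330 genes). From 4-fold upward root tip had the larger number in each class, with 823 against 632 genes at 4 to 8 fold, 340 against 209 at 8 to 16 fold and 223 against 179 at 16-fold or more. The classes were not counted under other scalings or pseudocounts. With a mean under 5 TPM, where the added 1 understates folds most, there were 2106 shoot tip genes and 1359 root tip genes. The part of this in the class counts was not tested. The 223 genes at 16-fold or more accounted for 2.46% ± 0.023 of root tip TPM but 0.0495% ± 0.00046 of shoot tip TPM. The 179 genes of the opposite class accounted for 4.08% ± 0.025 of shoot tip TPM but 0.0828% ± 0.0012 of root tip TPM (SD, n = 3 each), so the fewer genes held more of the transcript pool.

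**Figure D2:**
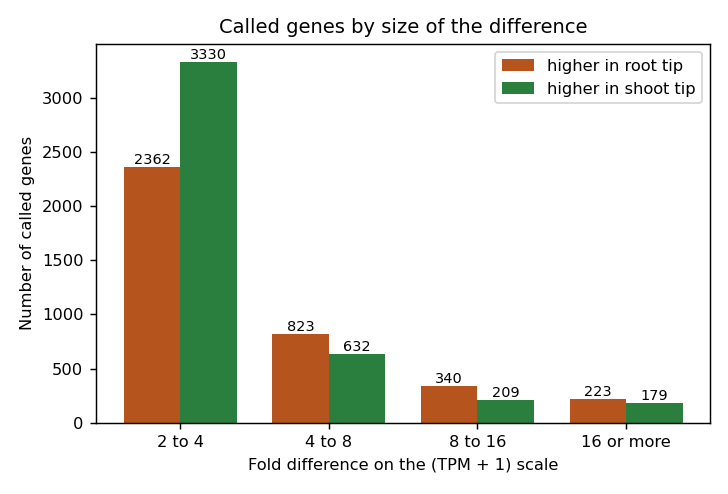
Number of called genes (vertical axis) by the size of the difference between root tip and shoot tip (horizontal axis), with a bar for each tip. Shoot tip has more genes at 2 to 4 fold (3330 against 2362), and root tip has more in each class above that.

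As deposited, the direction of the calls varied with the level of the gene. Shares by level were not computed under other scalings. A low gene can pass the filter through 1 tip alone, and more genes reached 1 TPM in shoot tip. The part of this in the shares was not tested. Among 12736 genes with a mean under 5 TPM over the 6 libraries, 16.5% were higher in shoot tip and 10.7% higher in root tip. The shares were 12.4% and 11.5% at 5 to 20 TPM. They changed order at 20 to 100 TPM, with 9.07% higher in shoot tip and 11.2% higher in root tip, and at 100 TPM or more, with 8.38% and 12.4% of 1694 genes. Replicate spread also followed the level, since the median SD of log2(TPM + 1) fell from 0.137 in root tip and 0.143 in shoot tip under 5 TPM to 0.0221 and 0.0235 at 100 TPM or more.

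The balance of directions also depended on the scaling. As deposited, 46.3% of the calls were higher in root tip. Median-ratio scaling, which equalises the typical gene between libraries, raised the median log2 fold change of all genes by 0.24, and root tip then took 59.7% of the calls (4823 against 3262 genes). Quantile normalization moved the median by 0.07 and gave 53.3% (4151 against 3644 genes). Called the same way under all 3 scalings were 3724 genes for root tip and 3111 for shoot tip, so 3724 of the 3748 root tip genes and 3111 of the 4350 shoot tip genes held under each. Requiring a mean of at least 5 TPM left 2389 genes for root tip and 2245 for shoot tip, and a pseudocount of 5 left 2091 and 1793. A pseudocount of 0.1 moved the balance the other way, with 4462 genes for root tip and 6520 for shoot tip, 40.6% of the calls being for root tip.

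Of the called genes whose libraries did not overlap between the tips, the 2 in each direction with the largest difference in mean TPM follow. Those higher in root tip were abundant in both tips, and those higher in shoot tip were under 100 TPM in root tip. LE_TRINITY_DN17701_c3_g1 was at 14360.96, 14428.43 and 14526.51 TPM in root tip and at 4580.51, 4560.09 and 4580.15 TPM in shoot tip. Its means lay 3.16-fold apart (log2 fold change 1.66, SE 0.0091, adjusted p = 6.5e-12). In the other tissues it averaged 11670 ± 160 TPM in leaf, 2508 ± 443 in root and 2286 ± 13.8 in leaf tip (SD, n = 3 each), so leaf lay nearest to root tip. RO_TRINITY_DN779_c0_g1 was at 2692.99, 2721.86 and 2756.4 TPM in root tip and at 992.73, 982.92 and 1007.35 TPM in shoot tip. The means of this gene lay 2.74-fold apart (log2 fold change 1.45, SE 0.014, adjusted p = 7.6e-11). No other tissue reached the root tip level, with 913.4 ± 57.3 TPM in root, 549.6 ± 7.23 in leaf tip and 447.4 ± 1.6 in leaf.

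In the opposite direction LE_TRINITY_DN5604_c0_g1 was at 3451.07, 3501.12 and 3506.34 TPM in shoot tip and at 70.7, 67.35 and 66.57 TPM in root tip. Its means lay 51.1-fold apart (log2 fold change -5.66, SE 0.023, adjusted p = 1.7e-12). It was highest in leaf tip, at 4635 ± 6.08 TPM, and lowest in the mature organs, with 2.83 ± 1.8 TPM in root and 1.41 ± 0.41 in leaf. SHA_TRINITY_DN12620_c0_g1 was at 2909.1, 2930.84 and 2942.01 TPM in shoot tip and at 16.89, 12.29 and 14.22 TPM in root tip, 202-fold apart (log2 fold change -7.58, SE 0.091, adjusted p = 2.3e-10). This gene instead followed the leaf, with 15140 ± 853 TPM in leaf, 2056 ± 13.5 in leaf tip and 68.0 ± 5.36 in root.

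Other abundant genes were close to level between the tips. LE_TRINITY_DN3483_c0_g1 was at 4675.66, 4652.15 and 4687.65 TPM in root tip and at 4940.37, 4920.48 and 4939.26 TPM in shoot tip. The libraries did not overlap, yet the log2 difference was -0.08 with a 95% interval of -0.10 to -0.06, and its sign turned to 0.20 under median-ratio scaling and 0.10 under quantile normalization. It ranged from 3364 ± 67.1 TPM in leaf to 5159 ± 14.7 in leaf tip across the plant. LE_TRINITY_DN16520_c1_g1 was at 3563.53, 3546.15 and 3617.72 TPM in root tip and at 3399.21, 3367.81 and 3444.85 TPM in shoot tip, a log2 difference of 0.07 with a 95% interval of 0.04 to 0.10 as deposited and of 0.35 after median-ratio scaling. Root held 432.8 ± 19.6 TPM of this gene, below both tips. Leaf tip held 6102 ± 68.6 TPM of it and leaf 5102 ± 108 TPM, above both.

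**Figure D3:**
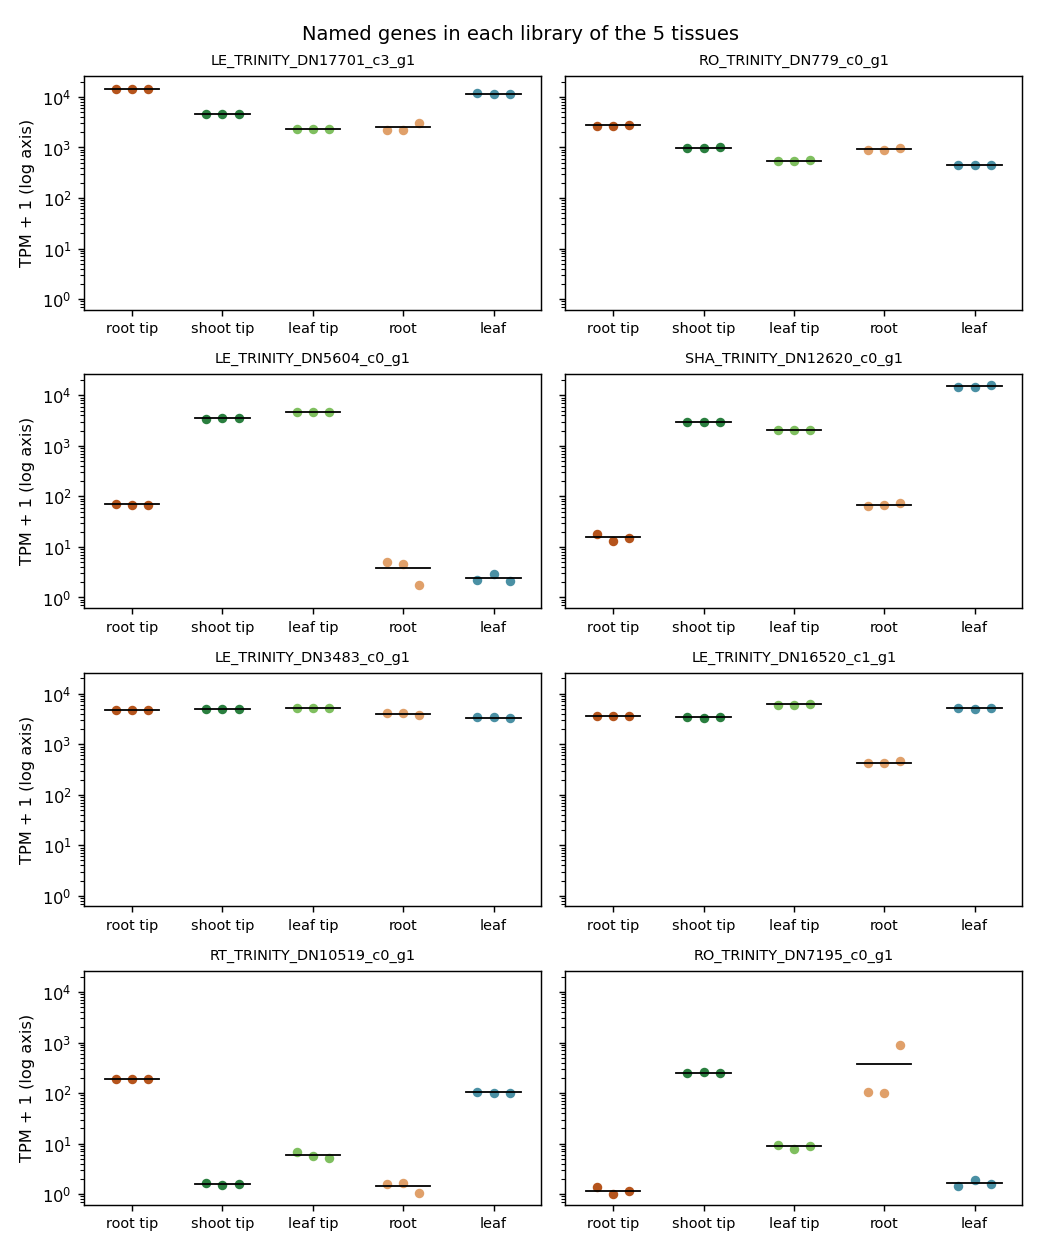
TPM + 1 on a log axis of the 8 named genes in each library of root tip, shoot tip, leaf tip, root and leaf, with points for libraries and bars for the mean. LE_TRINITY_DN5604_c0_g1 is high in shoot tip and leaf tip, SHA_TRINITY_DN12620_c0_g1 is highest in leaf, and RO_TRINITY_DN7195_c0_g1 has root replicate 3 at 904.45 TPM far above the other root libraries.

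Some genes were present in 1 tip and listed at 0 in the other. A value of 0 here may stand for a low level or for an estimate that failed. At 1 TPM or more in every root tip library and at 0 in every shoot tip library there were 74 of the 33538 genes tested. The reverse was shown by 349 genes. These genes were mostly low, with a median of 2.8 TPM in root tip and 2.23 TPM in shoot tip, and 15 and 18 of them reached 10 TPM. The highest averaged 51.4 TPM in root tip and 382.5 TPM in shoot tip. Of the 74 genes, 39 reached 1 TPM in root, 2 in leaf and 0 in leaf tip, and 34 did so in none of these tissues. Of the 349 genes, 57 reached 1 TPM in leaf tip, 34 in root and 32 in leaf, and 255 did so in none of these tissues. Without root replicate 3 the numbers that reached 1 TPM in root were 38 and 23, and those in none of these tissues 35 and 265. At 0 in all 12 libraries of the other tissues were 7 of the 74 and 43 of the 349. Identifiers with the tip's own prefix (RT for root tip, SHA for shoot tip) made up 48 of the 74 and 292 of the 349. These prefixes made up 41.2% of the root tip list and 42.3% of the shoot tip list. Of all genes tested they were 19.9% and 23.5%. The root tip count was sensitive to 1 library, rising to 143 without shoot tip replicate 3. Where the other tip was allowed values under 0.1 TPM, the counts were 225 for root tip and 523 for shoot tip. Requiring 5 TPM in every library of the higher tip left 24 and 34.

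The libraries of the other tissues, which had no part in the calls, give the levels of these genes elsewhere in the plant. The genes higher in root tip had a median of 14.7 TPM there, 11.9 in root, 2.28 in shoot tip, 2.22 in leaf and 0.94 in leaf tip, against 7.99, 6.05, 8.34, 5.14 and 7.77 TPM over all genes tested. The genes higher in shoot tip had a median of 8.78 TPM there, 7.74 in leaf tip, 1.59 in root tip, 1.32 in leaf and 0.808 in root. After its own tip, the root tip list was highest in root and the shoot tip list was highest in leaf tip. Single libraries of a tissue lay close together, with medians of 11.3, 11.4 and 12.1 TPM for the root tip list in root, and of 7.75, 7.7 and 7.67 TPM for the shoot tip list in leaf tip.

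**Figure D4:**
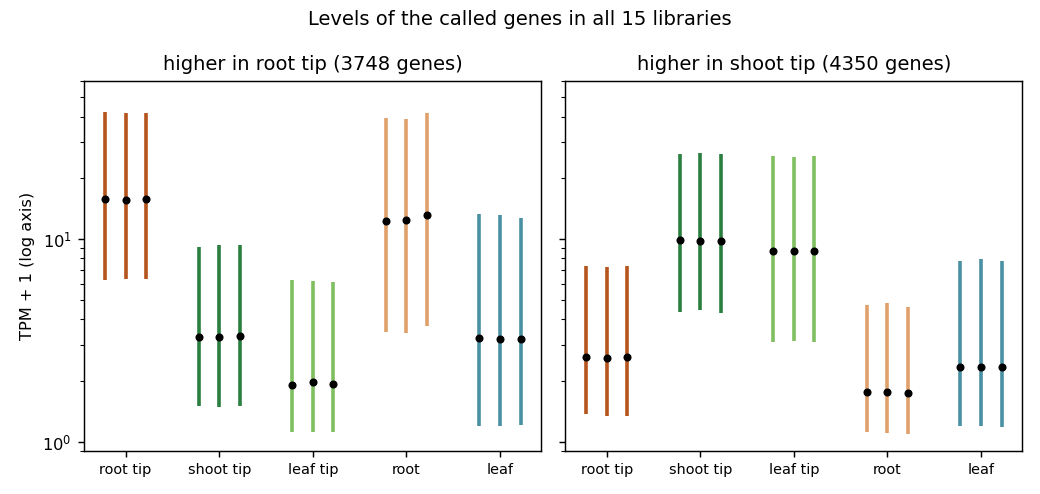
Levels of the genes called for root tip (left) and for shoot tip (right) in each of the 15 libraries, as TPM + 1 on a log axis, with a point at the median gene and a line from the lower to the upper quartile. Root lies next to root tip in the left panel (medians 11.3 to 12.1 TPM), and leaf tip lies next to shoot tip in the right panel (medians 7.67 to 7.75 TPM).

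Gene by gene, 2335 of the 3748 root tip genes (62.3%) had a root mean of at least 50% of their root tip mean, and 3208 of the 4350 shoot tip genes (73.7%) had a leaf tip mean of at least 50% of their shoot tip mean. Over all genes tested, these levels were reached by 70.6% and 86%. Genes called for a high level in a tip are by that choice less likely to reach them. Leaf tip reached 50% of the root tip mean in 5.52% of the root tip genes, against 80.9% of all genes tested. Leaf reached it in 25.3% of them, against 63.7%. Among the shoot tip genes, root reached 50% of the shoot tip mean in 21% and leaf in 25%, against 63.1% and 56.7% of all genes tested. Without root replicate 3 the root shares became 60.7% of the root tip genes and 21.3% of the shoot tip genes.

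A smaller part of each list stayed under 50% of the tip mean in root, leaf and leaf tip alike. In 1160 root tip genes (30.9% of the list) none of root, leaf and leaf tip reached 50% of the root tip mean, or in 1217 genes without root replicate 3. In shoot tip 726 genes (16.7%) met this, or 741 without root replicate 3. Over all genes tested the shares were 5.41% for root tip and 3.93% for shoot tip. The root tip genes of this kind had a median of 15.5 TPM and included 141 at 100 TPM or more, and they held 7.04% ± 0.035 of the summed TPM of root tip. Those of shoot tip had a median of 3.33 TPM, included 42 at 100 TPM or more and held 2.74% ± 0.013 of the summed TPM (SD, n = 3 each). Under a stricter limit, 187 of the root tip genes and 218 of the shoot tip genes had every other tissue, the opposite tip included, at 10% of the tip mean or less, or 214 and 220 without root replicate 3. In 1673 genes of the root tip list (44.6%) all 3 root tip libraries lay above the 12 libraries of the other tissues, and in 1447 genes of the shoot tip list (33.3%) all 3 shoot tip libraries did. Over all genes tested this held for 12.4% in root tip and 9.69% in shoot tip, where 24.1% were called between the tips. Without root replicate 3 the counts were 1858 and 1503 genes of the lists. Genes called for a high level in a tip are by that choice more likely to pass each of these limits. The excess of the lists over all genes tested is therefore no separate result.

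Root and leaf share no library with the tips, and their comparison shows whether the direction found between the tips recurred in the mature organs. By the same criteria 6955 of 31397 genes (22.2%) were higher in root and 4898 (15.6%) were higher in leaf. Of the 3211 root tip genes that could be tested there, 2041 (63.6%) were higher in root and 329 (10.2%) were higher in leaf. These 2041 genes were 54.5% of the root tip list and 29.3% of the root list. Of the 2589 shoot tip genes tested there, 984 (38%) were higher in leaf and 382 (14.8%) were higher in root. These 984 genes were 22.6% of the shoot tip list and 20.1% of the leaf list. Among the genes not called between the tips, 13.5% were called for root and 13.4% for leaf. Without root replicate 3 there were 7291 genes for root and 4954 for leaf, and they took in 54% of the root tip list and 22.8% of the shoot tip list. With median-ratio scaling of both comparisons these shares were 43% and 27.3%, and with quantile normalization 47.7% and 28.4%. The balance between root and leaf turned under both scalings. Median-ratio scaling gave 5354 genes for root and 6148 for leaf, and quantile normalization gave 5339 and 6190.

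The recurrence was greater for genes with larger differences between the tips. Among root tip genes the share higher in root was 55.2% at 2 to 4 fold, 70.4% at 4 to 8 fold, 82.9% at 8 to 16 fold and 92.8% of the 194 genes tested at 16-fold or more. Among shoot tip genes the share higher in leaf was 30.3%, 54.9%, 68.1% and 70.8% in the same classes, the last of 130 genes. Without root replicate 3 these shares ran from 55.1% to 92.8% and from 30.5% to 72.3%. They were not computed under other scalings. Across 28048 genes tested in both comparisons the log2 differences correlated with r = 0.41 and rho = 0.30, or 0.41 and 0.29 without root replicate 3. Genes are not independent replicates, and both comparisons use the same assembled identifiers.

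Genes with opposite directions in tips and mature organs numbered 329 for root tip and leaf, and 382 for shoot tip and root. They were 10.2% and 14.8% of the list genes tested there. Of the genes not called between the tips 13.4% were higher in leaf and 13.5% in root, and of all genes tested in both comparisons 15.3% and 19.3%. Median-ratio scaling of both comparisons turned the 2 counts to 564 and 210. RT_TRINITY_DN10519_c0_g1 was at 187.65, 185.32 and 191.02 TPM in root tip and at 0.67, 0.5 and 0.62 TPM in shoot tip (root tip minus shoot tip, log2 difference 6.89, SE 0.05, adjusted p = 2.4e-11). In the mature organs the order was turned, with 103.53, 101.69 and 100.54 TPM in leaf and 0.61, 0.63 and 0.05 TPM in root (root minus leaf, log2 difference -6.20, SE 0.17, or -5.99 without root replicate 3), so this gene was high at the root's end and in the leaf but low along the root. RO_TRINITY_DN7195_c0_g1 was at 250.8, 257.06 and 249.74 TPM in shoot tip and at 0.37, 0 and 0.15 TPM in root tip (log2 difference -7.77, SE 0.10, adjusted p = 3.8e-10). It was at 105.79, 101.02 and 904.45 TPM in root, the last in replicate 3, and at 0.47, 0.95 and 0.58 TPM in leaf (root minus leaf, log2 difference 7.02, SE 0.83, adjusted p = 0.00027). Without root replicate 3 the root mean of this gene was 103.4 TPM in place of 370.4, and the log2 fold change was 5.98 (SE 0.13).

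The shares of calls varied with the prefix of the identifier, which matches the tissue codes of the columns. Genes with the RT prefix were higher in root tip in 23.2% of 6658 cases and higher in shoot tip in 4.55%. Genes with the SHA prefix, the code of shoot tip, were higher in shoot tip in 23.4% of 7873 cases and higher in root tip in 4.06%. RO genes, of root, were higher in root tip in 19% and in shoot tip in 6.85%, and LA genes, of leaf tip, in 3.56% and 16.1%. LE genes, of leaf, were higher in root tip in 8.56% and in shoot tip in 10.1%, beside 11.2% and 13% of all genes tested. These shares were not tested against each other. How the assembly was made is not given in the sources used here, and its part in the calls was not tested. Among the 19007 tested genes with a prefix of neither tip, 1883 (9.91%) were called for root tip and 2205 (11.6%) for shoot tip.

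**Figure D5:**
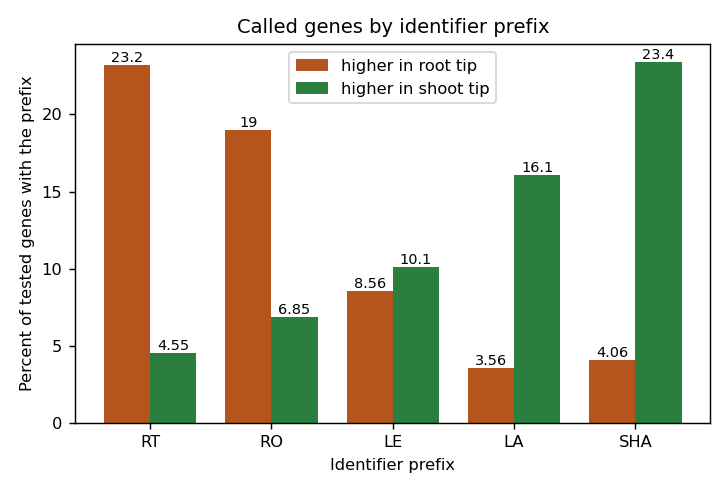
Percent of tested genes called for each tip (vertical axis) by the prefix of the identifier (horizontal axis), which matches root tip (RT), root (RO), leaf (LE), leaf tip (LA) and shoot tip (SHA). Root tip calls are most frequent under RT (23.2%) and RO (19%), and shoot tip calls under SHA (23.4%) and LA (16.1%).

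Where related sequences were called together, their directions more often agreed than differed. Trinity gives identifiers that differ in their last number alone to genes from the same assembly component, which share sequence. Of 1328 components with 2 or more tested genes, 197 had 2 or more called genes. All calls were higher in root tip in 92 of these, all were higher in shoot tip in 69, and 36 held calls in both directions. Of all genes tested 24.1% were called, and 46.3% of the calls were higher in root tip. The agreement to be had from these shares alone was not computed. Reads shared between such copies make their single values uncertain.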

How the data were processed

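Total RNA was extracted with TRIzol, per the labels' protocols. Per the submitters' processing notes, the tools were RSEM 1.3.2, Bowtie2 2.3.4.3 and Trim Galore 0.5.0, with no settings given. The authors deposited TPM values per gene with 2 decimals, which add up to 1000000 in every library within rounding, so depth is unknown and no counting interval could be given. Columns were joined to samples through the sample descriptions. The 3 leaf columns match the leaf group and no single sample, and are called replicates a, b and c. Values were analysed as log2(TPM + 1), so fold changes of low genes are understated. The 6 libraries of each comparison were fitted alone with limma 3.58.1 in R 4.3.3 (empirical Bayes with an intensity trend, Benjamini-Hochberg adjustment over all genes tested). Genes were called at an adjusted p under 0.05 and a log2 fold change of at least 1 in size, and the fit was tested on simulated data. First named are the 2 called genes per direction with the largest difference in mean TPM, among those whose tip libraries did not overlap. Then come the 2 most abundant genes with a log2 difference under 0.1 in size. Last, per direction, is the gene with the largest opposite differences in the tips and in root against leaf at 10 TPM or more. Members, rules and tests were chosen with earlier results of these data known. Plots used matplotlib 3.10.9 and Python 3.11.15. Pathway and marker lists were not used here, since the identifiers carry no names. Alternatives were other pseudocounts, filters and scalings, a fit of all 15 libraries, a replicate block, a test against the 2-fold minimum, and leaving out each library.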

Additional observations from a re-analysis of the deposited data

How the results depend on the processing

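The number of called genes depended most on how low values were treated. The 8098 calls fell to 3884 with a pseudocount of 5 (2091 higher in root tip, 1793 in shoot tip). They rose to 10982 with a pseudocount of 0.1 (4462 and 6520). Testing only genes that averaged 5 TPM or more gave 4634 calls (2389 and 2245). This filter took out the 12736 genes under 5 TPM, which held 1359 and 2106 of the 8098 calls. Of the 4634 calls, 2389 and 2244 were among the 8098, so that count was lower because fewer genes were tested. A test against the 2-fold minimum itself left 2818 genes higher in shoot tip and 2821 in root tip. Counting only prefixes of neither tip, chosen after seeing the data, left 4088 (1883 and 2205). The totals were 8085 with median-ratio scaling and 8091 with all 15 libraries in 1 fit. Leaving out single libraries gave 8112 to 8230 calls, 3757 to 3799 higher in root tip and 4351 to 4458 higher in shoot tip. Same-numbered libraries of the tips did not deviate together (r = -0.0195 to 0.0126), and a replicate block gave 8099 calls.

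Of the genes higher in root tip, 1072 were also higher in root and 153 in leaf with a pseudocount of 5. Of those higher in shoot tip, 436 were then also higher in leaf and 108 in root, while a pseudocount of 0.1 put the last count at 813. Median-ratio scaling gave 564 genes higher in root tip and leaf and 210 higher in shoot tip and root. Leaving out single libraries gave 2024 to 2053 (root tip and root), 977 to 994 (shoot tip and leaf), 321 to 337 (root tip and leaf) and 370 to 423 genes (shoot tip and root).

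Requiring 5 TPM left 24 genes listed at 0 in shoot tip and 34 in root tip. Allowing under 0.1 TPM in the other tip gave 225 and 523 genes. Leaving out single libraries gave 83 to 143 genes and 377 to 421 genes. The difference in genes at 1 TPM or more was then -3879 to -3587 (root tip minus shoot tip), and that in the share of the top 100 genes -0.472 to -0.194 percentage points. For the 8 named genes, 118 of 120 values under alternatives kept direction and call. The exceptions were those of LE_TRINITY_DN3483_c0_g1 under median-ratio scaling (0.199) and quantile normalization (0.103). The causes of these changes were not tested.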
